A study of Mus musculus with 12 samples.

Results

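Glycolysis splits glucose into pyruvate in the cytosol and yields ATP, NADH and carbon for other pathways. Proliferating cells and activated dendritic cells are known for a high use of this pathway, while resting cells rely more on respiration. The enzyme genes described here are Hk2, Gpi1, Pfkl, Aldoa, Gapdh, Pgk1, Pgam1, Eno1, Pkm and Ldha, 10 of the 21754 genes in the deposited count table. They were chosen by name as genes of the successive steps from the phosphorylation of glucose to lactate, with earlier results of these data known. All 10 passed the filter on low counts.

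Expression was measured by bulk SCRB-seq, which reads mostly the 3′ ends of transcripts, in 12 libraries of bone marrow cells from healthy, untreated, wild type C57BL/6 mice. The 4 sorted populations were pre-cDC (precursors of conventional dendritic cells that lack Siglec-H), lo-lo (Siglec-H+ precursors with low CCR9 and low B220), lo-hi (Siglec-H+ precursors with low CCR9 and high B220) and pDC (plasmacytoid dendritic cells with high CCR9 and high B220), with 3 libraries each. All populations came from unmanipulated marrow, with no transgene or gene deletion. They are compared in the order pre-cDC, lo-lo, lo-hi, pDC, and steps, rises and falls below refer to this order. It is not a line of descent, since in the study's cultures pre-cDC generated conventional dendritic cells and lo-lo cells gave both kinds. The study's methods speak of adult mice of both sexes. One source names 3 individual mice and another the pooling of marrow from several mice before sorting, so the p-values measure the spread between these libraries, which may be partly technical.

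The grouping of the libraries is in conflict with the deposited labels and has to be known before any value is read. Columns of the count table are named by the well of a plate. In this report, wells A1, A5 and A9 are pre-cDC, A2, A6 and A10 lo-lo, A3, A7 and A11 lo-hi, and A4, A8 and A12 pDC, each as replicates 1, 2 and 3. This order comes from matching the rank order of 28 transcription factor genes in each well to the named samples of the study's source data, none of them a glycolysis gene. All 12 wells ranked the 378 pairs of these genes as the sample of that name did, and the next best sample differed in at least 7 pairs. The deposited population label names another population in 8 of the 12 wells and the same one in A1, A6, A7 and A12, 1 per population. With the deposited labels as groups, edgeR called 0 of the 15293 genes tested and 0 of the 10 glycolysis genes, and 166 genes but 0 of the 10 had an unadjusted p under 0.05. The likelihood ratio test of DESeq2 called 5 genes and 0 of the 10 with those labels. Every statement below therefore holds for the order by wells only.

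Genes of the sorted surface proteins were not used for the match. Siglech had 308 ± 122 CPM (counts per 1e+06 of the library, scaled by TMM; SD, n = 3) in pre-cDC, 855 ± 136 in lo-lo, 2131 ± 206 in lo-hi and 2791 ± 232 in pDC. Ccr9 had 33.0 ± 11.5 CPM in pre-cDC, 66.0 ± 3.26 in lo-lo, 231 ± 18.0 in lo-hi and 461 ± 61.8 in pDC (SD, n = 3). Both genes thus rose from pre-cDC to pDC, with log2 fold changes of 3.18 (adjusted p = 7.0e-10) and 3.82 (adjusted p = 2.1e-12). Total counts ranged from 1801463 to 5995971 per library, with a median of 3087455, and a floor of 3 counts came to between 0.511 and 1.65 CPM, counting error only. Summed over 9 neutrophil granule genes, CPM ranged from 4439 to 11522 in pre-cDC, 5327 to 17763 in lo-lo, 9890 to 20678 in lo-hi and 3258 to 6620 in pDC. Summed over 7 erythroid genes, they ranged from 4692 to 18431, 5827 to 8225, 9149 to 11611 and 6769 to 14220 in the same order. None of these 16 genes was called between the populations, and their part in the results below was not tested.

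Between the 4 populations, 6 of the 10 glycolysis genes (Hk2, Aldoa, Gapdh, Pgk1, Eno1 and Pkm) were called at an adjusted p under 0.01, where 19.9% of all genes tested were called. All tests are edgeR's quasi-likelihood F test on 1 fit of the 12 libraries, with Benjamini-Hochberg adjustment over the 15293 genes whose counts averaged at least 1 per library. In every comparison of 2 populations, each glycolysis gene that was called had the lower level in the population closer to pDC. From pre-cDC to pDC, 6 genes fell (Hk2, Gapdh, Pgk1, Eno1, Pkm and Ldha), where 10.4% of all genes were called lower in pDC. The median log2 fold change of the 10 was -0.77, and that of all genes tested was 0.05. In the bulk RNA of a sorted population, fewer cells that express a gene and less RNA of it per cell cannot be told apart.

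**Figure D1:**
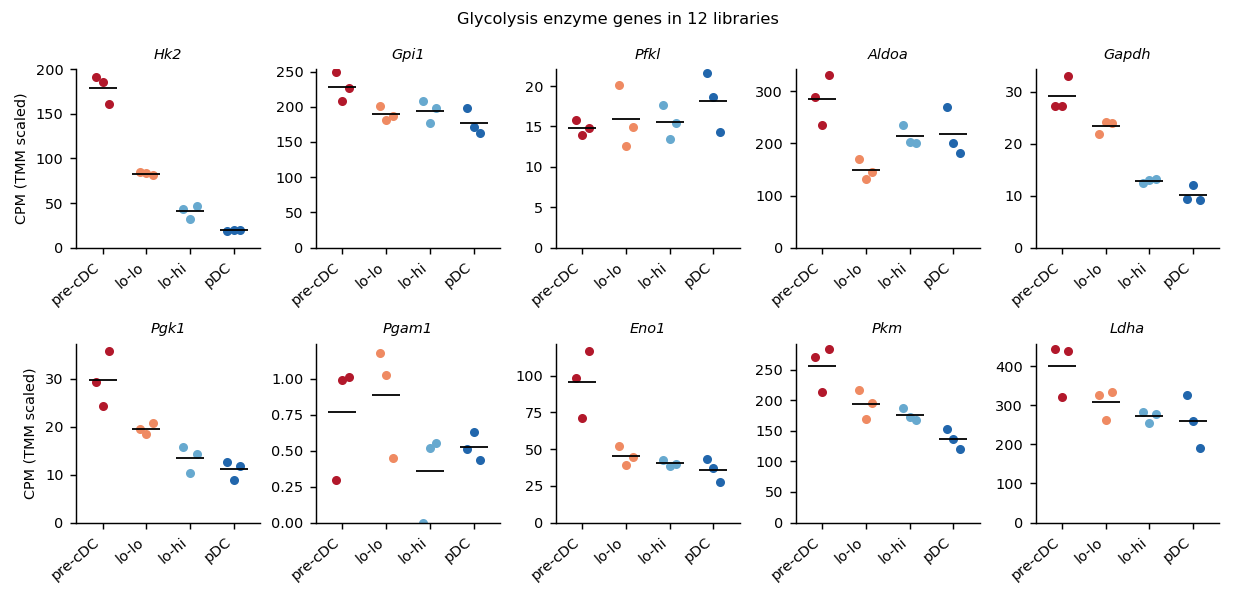
CPM (scaled by TMM, linear axis from 0) of each of the 10 glycolysis genes in the 12 libraries; points are libraries, horizontal lines are population means, and each panel has its own scale. Hk2 falls in 3 steps with no overlap between populations, whereas Pfkl and Gpi1 stay in a narrow range.

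The promoters of Hk2, Pgk1, Ldha and Ldhb are printed because Hk2 and Ldha had the largest and the smallest called decrease from pre-cDC to pDC, Pgk1 one between them, and Ldhb is an isozyme that moved the other way. The windows are RefSeq promoters on GRCm38.p6, from 250 bases before to 50 bases after the start, written 5′ to 3′ on the gene's strand. Capitals mark ACGTG on either strand, which is the core of motifs that HIF and MYC proteins read. CACGTG holds this core on both strands, so that it counts as 2 overlapping matches.
Hk2, chr6:82774405-82774704, minus strand: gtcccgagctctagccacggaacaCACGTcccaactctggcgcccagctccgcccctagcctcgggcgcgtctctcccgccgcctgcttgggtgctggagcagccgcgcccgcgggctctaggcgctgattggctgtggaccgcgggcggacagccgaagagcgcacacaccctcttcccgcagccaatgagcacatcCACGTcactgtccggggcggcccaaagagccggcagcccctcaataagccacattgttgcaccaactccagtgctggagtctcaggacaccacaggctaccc
Pgk1, chrX:106186850-106187149, plus strand: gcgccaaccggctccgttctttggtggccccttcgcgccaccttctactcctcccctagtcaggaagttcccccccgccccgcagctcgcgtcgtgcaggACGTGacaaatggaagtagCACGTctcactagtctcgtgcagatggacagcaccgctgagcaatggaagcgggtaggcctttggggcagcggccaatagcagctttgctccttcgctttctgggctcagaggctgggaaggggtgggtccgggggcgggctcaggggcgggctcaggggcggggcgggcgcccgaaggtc
Ldha, chr7:46845554-46845853, plus strand: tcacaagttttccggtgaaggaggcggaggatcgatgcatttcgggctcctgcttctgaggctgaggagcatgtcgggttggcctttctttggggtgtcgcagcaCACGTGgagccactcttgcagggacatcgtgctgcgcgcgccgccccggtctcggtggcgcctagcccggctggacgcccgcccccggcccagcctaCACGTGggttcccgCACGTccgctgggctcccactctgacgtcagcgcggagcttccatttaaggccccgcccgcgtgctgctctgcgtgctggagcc
Ldhb, chr6:142507908-142508207, minus strand: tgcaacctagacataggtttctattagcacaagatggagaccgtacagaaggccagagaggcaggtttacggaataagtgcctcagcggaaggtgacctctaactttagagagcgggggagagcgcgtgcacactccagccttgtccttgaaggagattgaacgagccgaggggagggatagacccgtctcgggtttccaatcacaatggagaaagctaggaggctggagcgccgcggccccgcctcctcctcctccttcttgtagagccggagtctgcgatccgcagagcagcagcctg
The Hk2 window held 2 matches, that of Pgk1 2 and this window of Ldha 5, with 2 copies of CACGTG. The Ldhb window held none. For Ldha, the listed promoter with more matches is the one printed. The other listed Ldha promoter (chr7:46846832-46847131, plus strand) held 0 matches and 0 copies of CACGTG. Of the 16 promoters listed for the 10 glycolysis genes, 8 had a match, and 7 of the 10 genes had one in any promoter. The 8 include 2 windows of Aldoa that overlap. Among other glycolysis genes and related enzymes called lower in pDC than in pre-cDC, Gapdh and Pkm had a match in a listed promoter. Eno1, Tpi1 and Pfkp had none. Among related enzymes called higher, Aldoc and Adpgk had a match and Pgam2 had none. Among all 32851 promoters of the table, 19.6% held ACGTG on either strand and 7.15% held CACGTG. These shares are per promoter and give no background for the count of 7 genes. A match describes these letters and is not evidence of binding.

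Hk2 encodes hexokinase 2, the inducible enzyme that traps glucose in the cell as glucose 6-phosphate. It lies on chromosome 6 of GRCm38 from 82725025 to 82774454 (minus strand, ENSMUSG00000000628, positions from GENCODE vM21). Hk2 had 191, 186 and 161 CPM in pre-cDC replicates 1, 2 and 3, and 84.8, 83.3 and 81.1 in lo-lo. It had 43.7, 32.6 and 46.8 CPM in lo-hi, and 19.1, 19.6 and 19.5 in pDC. The 4 populations did not overlap, and the 12 libraries were in the order pre-cDC, lo-lo, lo-hi, pDC.

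Hk2 was the only glycolysis gene called at each of the 3 steps. It fell by 1.11 on the log2 scale from pre-cDC to lo-lo (SE 0.154, adjusted p = 3.2e-05), by 1.01 from lo-lo to lo-hi (SE 0.163, adjusted p = 1.3e-04) and by 1.09 from lo-hi to pDC (SE 0.176, adjusted p = 6.4e-04). From pre-cDC to pDC, the level was 9.25-fold lower (log2 fold change -3.21, SE 0.173, adjusted p = 2.4e-12). These calls held without any 1 of the libraries.

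Gpi1, Pfkl and Aldoa carry the sugar phosphate from glucose 6-phosphate to its cleavage into trioses. Gpi1 (glucose-6-phosphate isomerase) had 249, 208 and 226 CPM in the pre-cDC libraries and 199, 171 and 162 in the pDC libraries, with lo-lo and lo-hi between 176 and 208. Its pDC libraries were all lower than its pre-cDC libraries, by a log2 fold change of -0.36 (95% interval -0.66 to -0.06) that did not pass (adjusted p = 0.059). Pfkl, the liver-type subunit of phosphofructokinase, ranged from 12.6 to 21.6 CPM over the 12 libraries. All populations overlapped for Pfkl, and the log2 fold change from pre-cDC to pDC was 0.31 (95% interval -0.14 to 0.76, adjusted p = 0.30).

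Aldoa (aldolase A, chromosome 7 of GRCm38 from 126795234 to 126800751) had a different order of levels. It had 290, 235 and 332 CPM in pre-cDC, 169, 131 and 146 in lo-lo, 235, 203 and 202 in lo-hi and 270, 200 and 182 in pDC. The lo-lo libraries were lowest and did not overlap with any other population. The gene fell 1.92-fold from pre-cDC to lo-lo (log2 fold change -0.94, SE 0.170, adjusted p = 6.8e-04). From lo-lo to lo-hi the log2 fold change was 0.52 (adjusted p = 0.056), and from lo-lo to pDC it was 0.55 (adjusted p = 0.020), neither past the cutoff. Between pre-cDC and pDC it was -0.39 (adjusted p = 0.079), and of the 12 libraries left out in turn, only the removal of pDC 1 made it pass (-0.62, adjusted p = 6.4e-03).

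Gapdh, Pgk1, Pgam1 and Eno1 turn triose phosphate into phosphoenolpyruvate. Gapdh encodes the dehydrogenase that makes NADH in the pathway and is often taken as a constant reference. It had 27.2, 27.3 and 33.1 CPM in pre-cDC, 21.9, 24.2 and 23.9 in lo-lo, 12.4, 12.9 and 13.2 in lo-hi and 9.37, 12.003 and 9.11 in pDC. These groups did not overlap, and the largest gap lay between lo-lo and lo-hi.

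From pre-cDC to pDC, Gapdh fell 2.88-fold (log2 fold change -1.53, SE 0.194, adjusted p = 7.1e-07). It fell 1.82-fold from lo-lo to lo-hi (log2 fold change -0.87, SE 0.196, adjusted p = 4.2e-03), and the changes before and after were -0.33 (adjusted p = 0.36) and -0.33 (adjusted p = 0.62). The call from lo-lo to lo-hi was lost without lo-lo replicate 2 or 3 or any 1 of the lo-hi replicates, where log2 fold changes were -0.89 to -0.84 and adjusted p 0.0124 to 0.0402.

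Pgk1 (phosphoglycerate kinase 1), the first step that yields ATP, had 29.3, 24.3 and 35.8 CPM in pre-cDC, 19.5, 18.4 and 20.8 in lo-lo, 15.7, 10.3 and 14.3 in lo-hi and 12.6, 8.84 and 11.7 in pDC. Only lo-hi and pDC overlapped. No single step was called, with log2 fold changes of -0.61 (adjusted p = 0.073), -0.51 (adjusted p = 0.17) and -0.30 (adjusted p = 0.72), although Pgk1 fell 2.68-fold from pre-cDC to pDC (log2 fold change -1.42, SE 0.211, adjusted p = 7.2e-06). From lo-lo to pDC it fell by 0.81 on the log2 scale (adjusted p = 6.7e-03), a call lost without any 1 of 6 libraries (pre-cDC 1, lo-lo 1, 2 and 3, pDC 2 and 3), with adjusted p from 0.0105 to 0.0430.

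Eno1 (enolase 1) had 98.1, 71.4 and 117 CPM in pre-cDC and 52.0, 39.2 and 44.9 in lo-lo. It had 42.8, 38.8 and 39.7 CPM in lo-hi and 43.1, 37.3 and 27.8 in pDC. The pre-cDC libraries stood above all others, and the remaining populations overlapped. Eno1 fell 2.11-fold from pre-cDC to lo-lo (log2 fold change -1.08, SE 0.187, adjusted p = 4.4e-04), and the later steps were -0.16 (95% interval -0.56 to 0.24) and -0.15 (95% interval -0.56 to 0.26). The change from pre-cDC to pDC was -1.39 (SE 0.190, adjusted p = 2.2e-06).

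Pgam1 (phosphoglycerate mutase 1) had 0 to 4 counts per library and 23 counts in all, so no level or fold change is given for it. The low counts of Pgam1 and of other members go with processed pseudogenes, reverse-transcribed copies of the mRNA in the genome. Transcripts of 8 of the 10 genes shared at least 50 windows of 50 bases with those of another gene, the exceptions being Hk2 and Pfkl. For 4 of the 10, most counts lay on such pseudogene copies. Gapdh had 717 counts of its own and 22000 on 96 copies (96.8% of the sum), of which 10747 were on Gm13394. Pgk1 had 714 against 3650 on Pgk1-rs7 (83.6%), Eno1 2093 against 4004 on Gm4735 (65.7%), and Pgam1 23 against 3271, nearly all on Pgam1-ps2 (99.3%). Reads from the gene and from its copy cannot be told apart over these windows, so the own counts of these 4 genes are uncertain as levels. For Gpi1 and Ldha, 4.02% and 0.308% of the sum lay on pseudogene copies, and for Aldoa and Pkm none. Genes of other types that share windows are not in these sums, such as Gm26762 for Gpi1 (775 counts) and Aldoart1 for Aldoa (17 counts).

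The copies with most counts fell as well. Gm13394 had 415 ± 75.7 CPM (SD, n = 3) in pre-cDC and 155 ± 16.5 in pDC (log2 fold change -1.42, adjusted p = 8.7e-08). Pgk1-rs7 had 134 ± 23.9 and 60.7 ± 8.26 CPM (-1.14, adjusted p = 8.2e-06), Gm4735 176 ± 46.5 and 69.4 ± 11.8 (-1.34, adjusted p = 3.6e-06) and Pgam1-ps2 129 ± 29.8 and 54.6 ± 14.2 (-1.22, adjusted p = 2.3e-05). With the counts of pseudogene copies added to each member, a step chosen after the data were seen, the log2 fold changes from pre-cDC to pDC were -1.46 for Gapdh (SE 0.155, adjusted p = 4.1e-08), -1.22 for Pgk1 (SE 0.169, adjusted p = 2.7e-06) and -1.40 for Eno1 (SE 0.185, adjusted p = 1.4e-06). Pgam1 with its copies had 133, 98.8 and 159 CPM in pre-cDC, 100.2, 76.1 and 83.9 in lo-lo, 76.9, 60.9 and 63.0 in lo-hi and 65.9, 57.5 and 39.2 in pDC. Its log2 fold change from pre-cDC to pDC was -1.25 (SE 0.196, adjusted p = 1.6e-05), and no single step passed. In this fit 7 of the 10 genes were called between the 4 populations, Pgam1 being the added one.

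**Figure D2:**
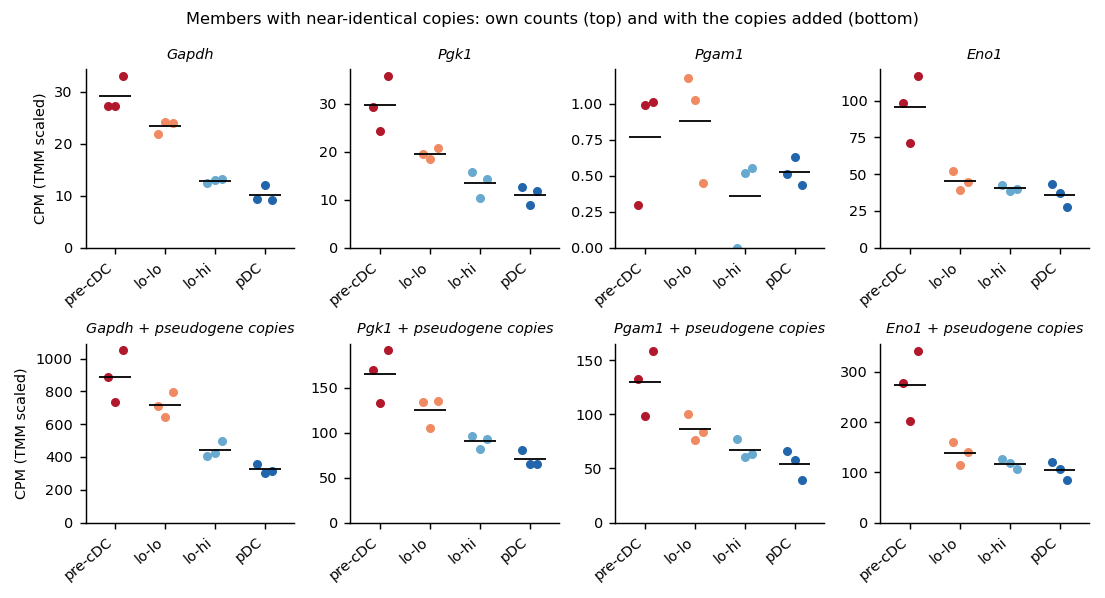
CPM (scaled by TMM, linear axes from 0) of Gapdh, Pgk1, Pgam1 and Eno1 in the 12 libraries, from the counts assigned to the gene itself (top) and with the counts of its pseudogene copies added (bottom); points are libraries and lines population means. Levels are several times higher with the copies, and the pre-cDC libraries stay above the pDC libraries in all 4 lower panels.

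Pkm and Ldha close the pathway. Pkm, pyruvate kinase of muscle type, whose splice forms M1 and M2 a 3′ count does not separate, had 271, 214 and 283 CPM in pre-cDC, 217, 170 and 195 in lo-lo, 187, 173 and 167 in lo-hi and 153, 136 and 121 in pDC. The pDC libraries were the lowest 3. Pkm fell 1.87-fold from pre-cDC to pDC (log2 fold change -0.90, SE 0.154, adjusted p = 4.8e-05), spread over steps of -0.40, -0.14 and -0.36 that did not pass singly (adjusted p = 0.14, 0.70 and 0.35).

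Ldha (lactate dehydrogenase A), which turns pyruvate to lactate and restores NAD+, had 444, 322 and 440 CPM in pre-cDC, 326, 263 and 334 in lo-lo, 284, 255 and 277 in lo-hi and 326, 261 and 192 in pDC. The highest pDC library stood above the lowest pre-cDC library. Ldha was not called between the 4 populations (adjusted p = 0.022), and its fall of 0.63 on the log2 scale from pre-cDC to pDC (SE 0.174, adjusted p = 6.8e-03) was the smallest of those called. That call was lost without any 1 of 5 libraries (pre-cDC 1 and 3, lo-hi 3, pDC 2 and 3), with log2 fold changes of -0.66 to -0.45 and adjusted p from 0.0113 to 0.0538, and in a fit of only the 6 libraries compared (-0.66, adjusted p = 0.026).

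By step, lo-lo was lower than pre-cDC in 3 of the 10 genes (Hk2, Aldoa and Eno1), where 1.55% of all genes were called lower. Lo-hi was lower than lo-lo in Hk2 and Gapdh, where 2.83% of all genes were, and pDC was lower than lo-hi in Hk2 alone, where 0.844% were. Across 2 steps, lo-hi was lower than pre-cDC in 4 of the 10 (Hk2, Gapdh, Pgk1 and Eno1; 6.32% of all genes) and pDC lower than lo-lo in 3 (Hk2, Gapdh and Pgk1; 7.08% of all genes). These comparisons share libraries, so they are not separate results.

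**Figure D3:**
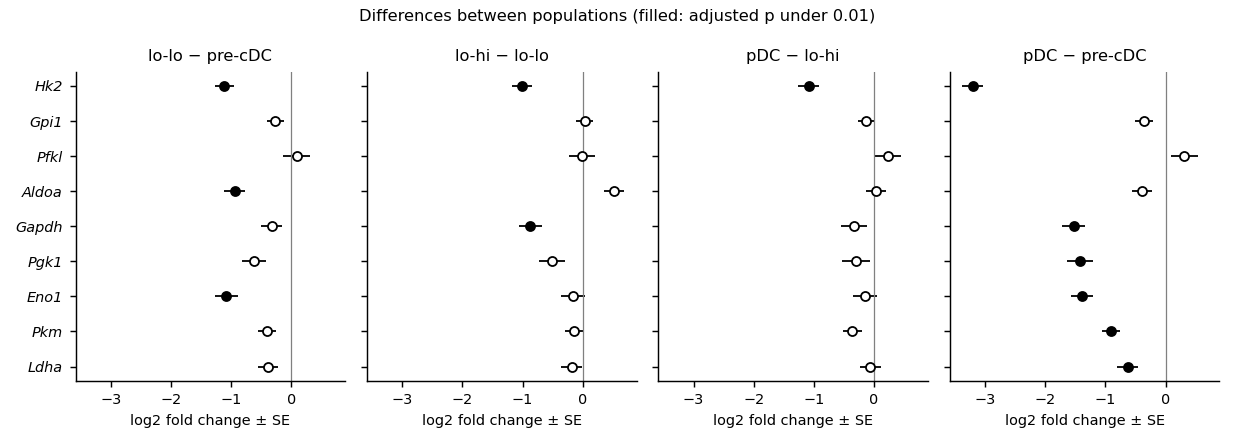
Log2 fold changes (points) with standard errors (bars) of 9 glycolysis genes for the 3 successive steps and for pDC minus pre-cDC; filled points had an adjusted p under 0.01, and Pgam1 is left out for its low counts. Hk2 is filled in all 4 panels, and Aldoa and Eno1 have their largest decrease at the first step and Gapdh at the second.

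Genes of proliferation moved along the same populations. Summed over 22 cell cycle genes, CPM ranged from 2187 to 2906 in pre-cDC, 2547 to 2780 in lo-lo, 1020 to 1326 in lo-hi and 471 to 559 in pDC. Of these 22 genes, 22 were lower in pDC than in pre-cDC (10.4% of all genes) and 22 lower in lo-hi than in lo-lo (2.83% of all genes). Between lo-lo and pre-cDC 0 of the 22 were called (edgeR; median log2 fold change -0.05), the step at which Hk2, Aldoa and Eno1 fell. The part of proliferation in the results was not tested. The 6 cDC lineage genes listed also moved with the populations, with summed CPM of 238 to 308 in pre-cDC, 113 to 142 in lo-lo, 65.8 to 86.0 in lo-hi and 55.0 to 58.6 in pDC, and their part was not tested either.

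Across the 12 libraries, Pearson's r between pairs of the 10 genes ranged from -0.37 (Pfkl and Gapdh) to 0.95 (Hk2 and Gapdh), as a description of libraries that share depth and population. Eno1, Pkm and Ldha were alike (r of 0.90 to 0.93), as were Hk2, Gapdh and Pgk1 (0.89 to 0.95). Pkm was about as close to Hk2 and to Pgk1 (0.90 each), so these sets were not apart. Pfkl had no r above 0.27 with any other. The 5 genes of 7815 with a mean of at least 10 CPM whose levels were most like the mean of the 10 were Eif3l (r = 0.98), Pgam1-ps2 (0.98), Taldo1 (0.98), Idh1 (0.97) and Arpc5 (0.97), over 12 libraries. Among them, Pgam1-ps2 is the copy of Pgam1 described above, and Taldo1 is an enzyme of the pentose phosphate pathway.

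Other forms of the same enzymes, and enzymes of nearby steps, moved in both directions. Of 11 related enzyme genes with enough counts, from pre-cDC to pDC 4 rose (Pgam2, Ldhb, Aldoc and Adpgk), 2 fell (Tpi1 and Pfkp) and 5 were not called. Of all genes, 11.4% were called higher and 10.4% lower in pDC. Ldhb, the lactate dehydrogenase subunit that favours the conversion of lactate to pyruvate, had 14.6, 24.8 and 16.6 CPM in pre-cDC, 28.4, 25.9 and 17.9 in lo-lo, 103, 72.9 and 69.4 in lo-hi and 158, 120 and 85.5 in pDC. The lo-hi and pDC libraries were all above the others. Ldhb rose 6.68-fold from pre-cDC to pDC (log2 fold change 2.74, SE 0.255, adjusted p = 2.8e-08), and by 1.795 on the log2 scale from lo-lo to lo-hi (adjusted p = 4.7e-05).

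Pgam2, the muscle form of phosphoglycerate mutase, had 8.49, 18.8 and 8.45 CPM in pre-cDC, 12.1, 14.0 and 8.93 in lo-lo, 68.5, 56.9 and 34.2 in lo-hi and 193, 131 and 115 in pDC. It rose 12.9-fold from pre-cDC to pDC (log2 fold change 3.69, SE 0.330, adjusted p = 3.3e-07), most of it from lo-lo to lo-hi (2.23, adjusted p = 3.1e-04). Aldoc (aldolase C) rose by 1.21 on the log2 scale (SE 0.236, adjusted p = 2.4e-04) and by 0.97 from lo-lo to lo-hi (adjusted p = 8.6e-03), and the first of these calls was lost with all libraries thinned to the smallest total (0.86, adjusted p = 0.025). Adpgk, a glucokinase that uses ADP, rose by 0.85 (SE 0.190, adjusted p = 1.0e-03), a call lost without pDC 1 or pre-cDC 3 (adjusted p = 0.0119 and 0.0134).

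Tpi1 (triosephosphate isomerase) lies between Aldoa and Gapdh in the pathway and fell 2.66-fold (log2 fold change -1.41, SE 0.196, adjusted p = 2.7e-06). Pfkp, the platelet-type phosphofructokinase, fell 1.86-fold (-0.89, SE 0.182, adjusted p = 4.1e-04), while Pfkl and Pfkm (-0.20, 95% interval -0.88 to 0.48) did not pass. Of the other hexokinases, Hk1, the housekeeping form, had a log2 fold change of -0.07 (95% interval -0.47 to 0.33) and Hk3 of -1.37 (adjusted p = 0.017), which passed without pre-cDC 3 (-1.70, adjusted p = 4.3e-03), with the replicate block (-1.45, adjusted p = 1.9e-03) and with no filter on low counts (-1.40, adjusted p = 2.2e-03). Eno3, the muscle enolase (0.40, adjusted p = 0.29), and Bpgm, the bisphosphoglycerate mutase (0.69, adjusted p = 0.052) did not pass, and Bpgm passed without pre-cDC 2 (1.03, adjusted p = 2.4e-03) and with the replicate block (0.68, adjusted p = 7.6e-03).

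**Figure D4:**
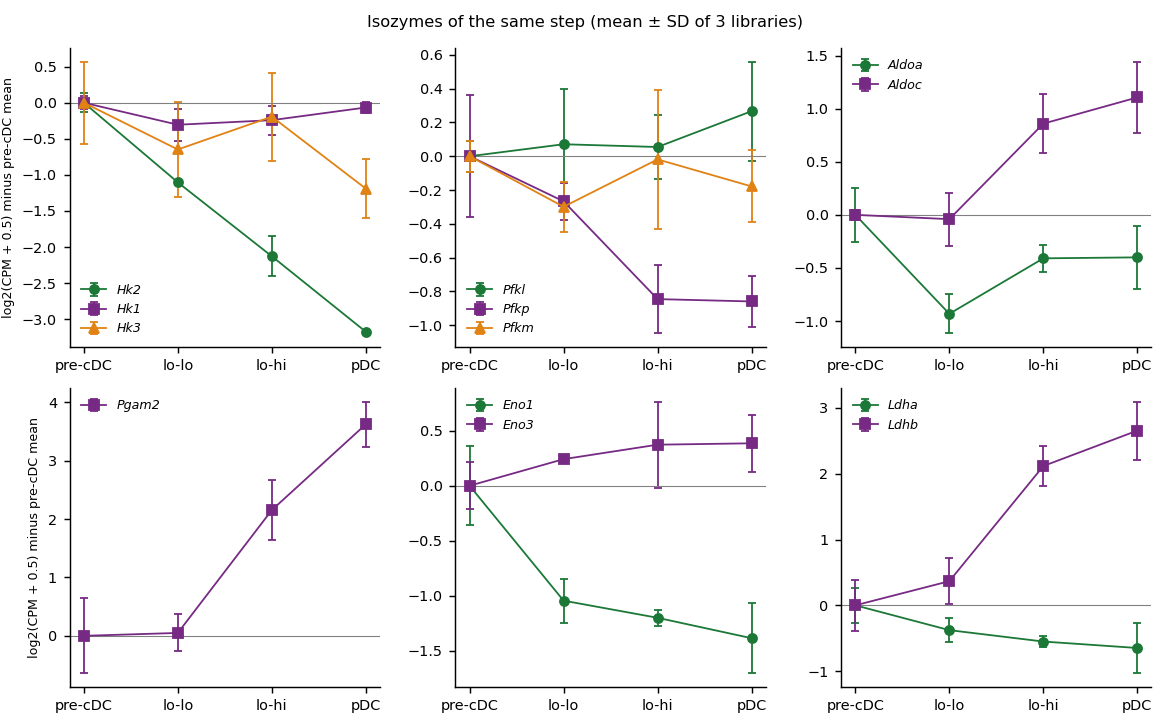
Log2(CPM + 0.5) minus the pre-cDC mean for the genes of 6 enzymatic steps, as mean ± SD of 3 libraries per population; each panel has its own scale, and Pgam1 is left out for its low counts. Ldhb, Pgam2 and Aldoc go up at lo-hi, while Hk2, Ldha, Eno1 and Pfkp end below their pre-cDC level.

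Of 8 transporter genes, 2 fell, 2 rose and 4 were not called from pre-cDC to pDC, where 10.4% of all genes were called lower and 11.4% higher. The lactate carriers Slc16a3 (MCT4) and Slc16a1 (MCT1) fell 4.50-fold and 4.003-fold from pre-cDC to pDC (log2 fold changes -2.17 and -2.001, SE 0.283 and 0.374, adjusted p = 1.1e-06 and 1.5e-04). Slc16a1 averaged 8.49 CPM in pre-cDC and 2.01 in pDC, the latter not far above the floor of 3 counts. Slc16a3 had 20.5, 16.4 and 24.0 CPM in pre-cDC and 5.62, 4.42 and 2.60 in pDC, and it fell by 1.51 on the log2 scale already from pre-cDC to lo-lo (adjusted p = 5.5e-04). The hexose carrier genes Slc2a6 and Slc2a3 (GLUT3) rose by 1.26 and 0.87 (SE 0.181 and 0.197, adjusted p = 4.2e-06 and 1.2e-03). The Slc2a3 call was lost without pDC 1 or pre-cDC 3 (adjusted p = 0.0136 and 0.0150) and with thinned libraries (0.57, adjusted p = 0.055). Slc2a1 (GLUT1) had a log2 fold change of -0.64 and Bsg, the chaperone of the lactate carriers, of -0.07, neither called.

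Among 12 regulators of the pathway, 3 fell and 2 rose from pre-cDC to pDC, where 10.4% of all genes were called lower and 11.4% higher. Myc, a transcription factor known to drive glycolytic genes, had 14.3, 15.4 and 18.2 CPM in pre-cDC, 4.13, 2.39 and 5.36 in lo-lo, 2.65, 1.55 and 3.86 in lo-hi and 1.02, 1.58 and 1.30 in pDC. Its pre-cDC libraries stood far above the rest, and the pDC values lay near the floor of 3 counts. It fell by 1.95 on the log2 scale from pre-cDC to lo-lo (SE 0.288, adjusted p = 7.0e-05) and by 3.64 to pDC (SE 0.353, adjusted p = 8.9e-09). Hif1a, the oxygen-regulated factor of glycolytic genes, rose 2.39-fold (1.26, SE 0.185, adjusted p = 6.5e-06), and Vhl, which marks HIF1A protein for decay, fell 2.42-fold (-1.27, SE 0.163, adjusted p = 7.9e-07). Txnip, an inhibitor of glucose uptake, rose by 0.66 (adjusted p = 3.2e-03), a call lost without any 1 of 4 libraries (pre-cDC 1 and 3, pDC 1 and 2), with adjusted p from 0.0135 to 0.0272. Protein levels and activity were not measured.

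The branches that leave glycolysis differed. Against 10.4% of all genes called lower and 11.4% higher, 4 of 8 genes of the pentose phosphate pathway fell from pre-cDC to pDC and none rose. They include G6pdx, its entry enzyme (log2 fold change -1.45, SE 0.211, adjusted p = 5.2e-06), Tkt (-0.91, SE 0.137, adjusted p = 9.8e-06) and Taldo1 (-0.67, SE 0.159, adjusted p = 1.7e-03), whose call was lost without pre-cDC 1 or pDC 3 (adjusted p = 0.0146 and 0.0158). Pgls, the second enzyme, rose from pre-cDC to lo-lo (0.68, adjusted p = 1.2e-03). Of the serine branch, Psat1 fell 4.55-fold (-2.19, SE 0.215, adjusted p = 1.1e-08) and Shmt1 3.94-fold (-1.98, SE 0.380, adjusted p = 2.0e-04). Shmt1 averaged 6.64 CPM in pre-cDC and 1.68 in pDC, the latter not far above the floor of 3 counts. Phgdh, the entry enzyme of serine synthesis, and Gpd2, the mitochondrial glycerol phosphate dehydrogenase, were called between the 4 populations but not from pre-cDC to pDC (0.39, adjusted p = 0.19, and -0.55, adjusted p = 0.017). Phgdh was highest in lo-lo, with means of 17.75 CPM in pre-cDC, 41.6 in lo-lo, 30.5 in lo-hi and 23.0 in pDC. From lo-lo to pDC its log2 fold change was -0.82 (adjusted p = 3.4e-03). Gpd2 passed with DESeq2 size factors (-0.60, adjusted p = 9.9e-03) and with the low-count filter filterByExpr of edgeR (-0.57, adjusted p = 8.1e-03).

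Of 12 genes that bring pyruvate into mitochondria, 1 was called from pre-cDC to pDC, where 10.4% of all genes were called lower and 11.4% higher. It was Pdk2, a kinase that inhibits pyruvate dehydrogenase, which rose by 1.12 on the log2 scale (SE 0.271, adjusted p = 2.3e-03), a call lost without pre-cDC 1 or 2 or pDC 1 (adjusted p from 0.0126 to 0.0161) and with thinned libraries (0.99, adjusted p = 0.019). Of 13 genes of glycogen and other sugars, Galk1 (galactokinase) rose 2.505-fold (1.32, SE 0.158, adjusted p = 2.6e-07) and Pgm2 fell 2.41-fold (-1.27, SE 0.288, adjusted p = 1.2e-03; lost without pre-cDC 1 or pDC 2, adjusted p = 0.0108 and 0.0112). Over all 71 tested genes of glucose metabolism beside the 10, 14 fell and 10 rose from pre-cDC to pDC, with a median log2 fold change of -0.07. Of all genes tested, 10.4% were called lower and 11.4% higher.

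**Figure D5:**
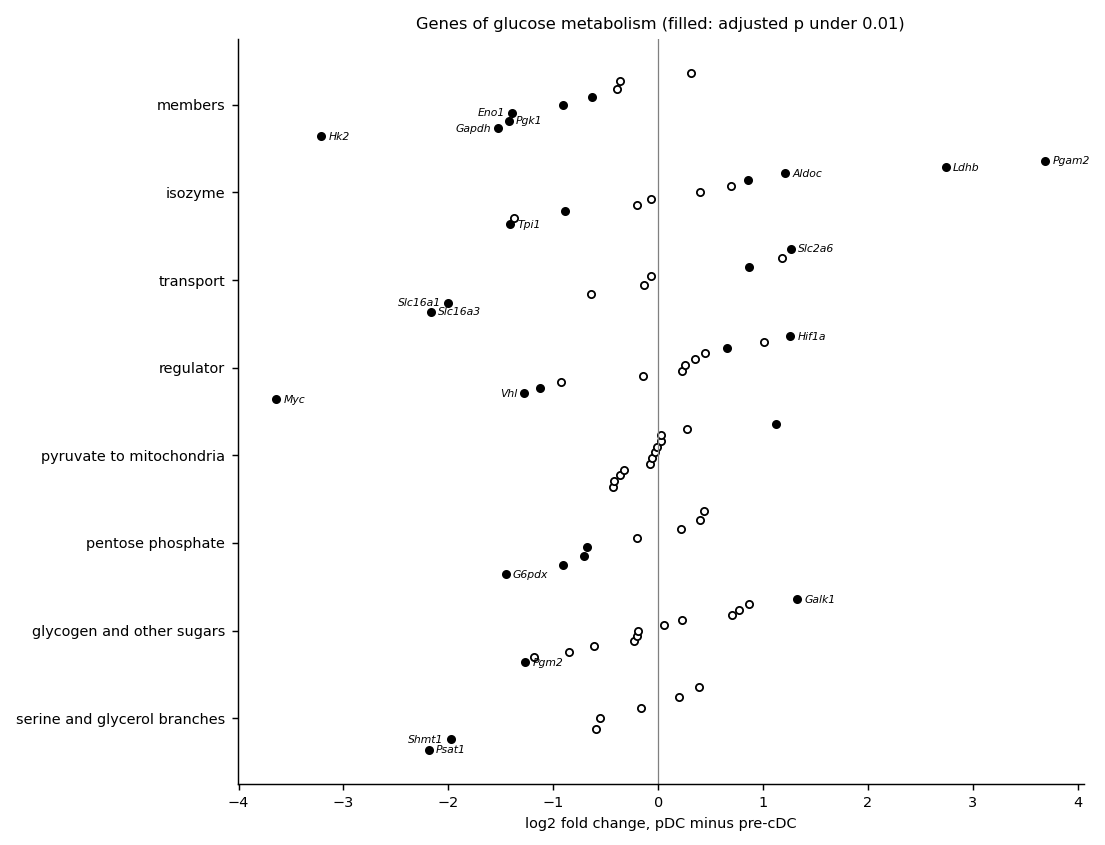
Log2 fold change of pDC minus pre-cDC for the glycolysis genes without Pgam1 and the other genes of glucose metabolism by role, 1 point per gene, filled where the adjusted p was under 0.01; points are spread vertically within a role for legibility. The filled points of the glycolysis and pentose phosphate genes all lie left of 0, and those of the other enzyme forms, transporters and regulators lie on both sides.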

How the data were processed

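RNA of sorted bone marrow cells was measured by SCRB-seq in 12 libraries. Reads had been filtered by zUMIs and aligned by STAR to GRCm38, and the authors deposited a table of whole-number, unnormalized counts per Ensembl gene and well. Whether these are reads or molecular identifiers is not given in the sources used here. GENCODE vM21 gave a symbol to 21410 of the 21754 identifiers.

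Wells were grouped by the rank match described in the report. Genes averaging at least 1 count per library were kept (15293, with 6461 left out), as in the study's methods, and tested with edgeR 4.0.16 in R 4.3.3 (TMM, robust quasi-likelihood fit, no covariates, Benjamini-Hochberg, cutoff 0.01). The study used the likelihood ratio test of DESeq2, which was run here as an alternative (version 1.42.0). CPM are counts per 1e+06 after TMM scaling. The steps were tested on simulated data. There, 57 of 100 genes with a true log2 fold change of 1 between pre-cDC and pDC were called, and 92 of 100 with one of 2. Of 14859 unchanged genes, 8 were called as well. A change that did not pass is therefore not shown to be absent. Totals of 1801463 to 5995971 counts limit low genes.

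The members and gene lists were chosen with earlier results of these data known. Named beside the members were genes of glucose metabolism called between the 4 populations (at most 4 per role, by the size of pDC minus pre-cDC), their isozymes, the 5 most alike genes, and Siglech and Ccr9. Other values of genes in these lists were named after they were seen (Slc2a1 and Bsg). Copies were found as shared windows of 50 bases (at least 50) in GENCODE vM21 transcripts. The alternatives were DESeq2's tests and size factors, other filters, a cutoff of 0.05, thinning to the smallest total, a replicate block, fits of only the 6 libraries compared, leaving out each library, the deposited labels, the 4 wells on which label and grouping coincide, and, added after the data were seen, the pseudogene copies.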

Additional observations from a re-analysis of the deposited data

How the results depend on the processing

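The results depend on the grouping of the wells. With the deposited labels, 0 members were called in the 4-population test and in each of the 6 comparisons of 2 populations, and 0 of all 15293 genes between the 4 populations (edgeR; 166 genes and 0 members at an unadjusted p under 0.05; 5 genes and 0 members by DESeq2). With only the 4 wells on which label and grouping coincide, which allow no test here, 21 of 39 named log2 fold changes from pre-cDC to pDC moved by less than the spread between replicates. Another 16 moved by more and kept their sign, 11 to a larger size (Ldha to -1.21, Slc16a3 to -2.98) and 5 to a smaller one (Adpgk to 0.35). Pfkl (-0.14) and Phgdh (-0.23), neither of them called, changed sign. Thinned to the smallest total, 1 member was called from lo-lo to lo-hi in place of 2, and from lo-lo to pDC a cutoff of 0.05 gave 5 in place of 3. Thinning ended the calls of Aldoc, Slc2a3 and Pdk2 from pre-cDC to pDC, of Gapdh from lo-lo to lo-hi (-0.73, adjusted p = 0.070) and of Pgk1 from lo-lo to pDC (-0.73, adjusted p = 0.044). In a fit of only the 6 libraries compared, the calls of Ldha (-0.66, adjusted p = 0.026), Taldo1 (-0.71, adjusted p = 0.012) and Txnip (0.63, adjusted p = 0.016) were lost.

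The numbers of the replicates come from the order of the wells. Libraries with the same number had deviations from their group means that correlated with a mean r of 0.12 over 18 pairs (11 over 0.1), against -0.06 over 36 pairs with different numbers (4 over 0.1). Deviations within a group cancel, so the second mean largely follows from the first and is not a separate result. Of the 12 libraries, 10 correlated best with a library of their own number, a hint from the data and not from the design. Whether libraries of 1 number share a mouse is not settled by the sources used here. With the replicate block, 7 members and 3730 genes were called between the 4 populations, 5 members from lo-lo to pDC and 6 from pre-cDC to lo-hi, and Hk3 and Bpgm passed from pre-cDC to pDC.

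Leaving out each library gave 6 to 7 members and 2411 to 3335 genes between the 4 populations, 5 to 7 members from pre-cDC to pDC, 4 to 6 from pre-cDC to lo-hi, 1 to 2 from lo-lo to lo-hi and 2 to 5 from lo-lo to pDC (5 without pre-cDC 2). From pre-cDC to lo-lo it was 3 and from lo-hi to pDC 1 in each. DESeq2's tests called 7 members and 2884 genes between the 4 populations. The cause of these changes was not tested. Depth limits Myc in pDC and other genes of a few counts, while for Pgam1 most counts lay on pseudogene copies.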
